A study of Mus musculus with 12 samples.

Results

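The 10 genes described here encode the ligand, receptors and first intracellular relays of insulin and IGF1 signalling: Igf1, Insr, Igf1r, Irs1, Irs2, Irs3, Pik3r1, Akt1, Akt2 and Foxo1. They were taken by gene name from a count table of 54532 genes, each matched exactly 1 entry, and all 10 passed the low-count filter that left 14855 genes for testing. It holds bulk RNA-seq of the mouse preadipocyte line 3T3-L1, which grows as fibroblasts and carries the genotype label WT. All 12 libraries were taken on day 6, in 4 groups of 3. The untreated group carries no inducing agent in its title or treatment label. The DMI group received the adipogenic mixture of dexamethasone, IBMX and insulin, and the remaining 2 groups received DMI with luteolin or DMI with quercetin. In the protocol text, post-confluent cells had 0.5 mM IBMX, 1 µM dexamethasone and 10 µg/ml insulin with 10% serum until day 2, then insulin at the same concentration for 2 days, then serum alone. That text stands on every sample, the untreated ones included. By it, the induced cells had been without added insulin for their last days when RNA was taken, so insulin itself is an agent of the induction and a ligand of the pathway measured. For luteolin and quercetin, neither dose nor length of exposure is given.

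Insulin and IGF1 bind related tyrosine kinase receptors that phosphorylate insulin receptor substrates. These adaptors recruit phosphoinositide 3-kinase through its regulatory subunit, and the lipid it makes brings Akt kinases to the membrane, where they are activated and in turn keep the transcription factor FoxO1 out of the nucleus. Preadipocytes respond to high insulin largely through IGF1 receptors, whereas mature adipocytes carry many insulin receptors and use Akt2 to move the glucose transporter GLUT4 to the cell surface. Luteolin is a flavone and quercetin is the flavonol that carries an additional hydroxyl group on the central ring.

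With DMI, 7 of the 10 genes rose against untreated cells and none fell (edgeR's quasi-likelihood test, adjusted p under 0.05). Among all genes tested, 27.1% were called in this comparison and 14.7% were called higher. The genes that rose were the insulin receptor, all 3 receptor substrates, the regulatory subunit Pik3r1, Akt2 and Foxo1. Igf1, Igf1r and Akt1 were lower on average and missed the threshold. Luteolin added to DMI gave no call among the 10 (0.0202% of all genes called), and quercetin added to DMI lowered 1, Irs3 (1.01% of all genes called, 0.848% lower). Irs3 passed the low-count filter only through the DMI libraries, so a difference from the groups with few counts was built into its selection for testing. Without it, the counts were 6 of 9 for DMI, 0 of 9 for luteolin and 0 of 9 for quercetin.

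Library totals ran from 14522182 to 19436796 counts. The labels do not call the replicates separate cultures. If they were not, the p-values cover only library-to-library spread, which may be technical. The untreated libraries differed little among themselves, while the third library of each induced group stood apart from the other two. The summed level of 6 adipocyte markers (Adipoq, Fabp4, Plin1, Cidec, Lep and Retn) ran from 1.43 to 14.4 CPM (counts scaled by library size) in untreated libraries, from 2348 to 10471 with DMI, from 1863 to 5312 with luteolin and from 516 to 2666 with quercetin. Within each induced group the third library had the lowest sum. All 6 markers rose with DMI, and Lep was at 0 counts in every untreated library. Summed markers of preadipocytes and fibroblasts (Dlk1, Pdgfra, Thy1, Col1a1 and Col3a1) ran from 37839 to 39564 CPM untreated, from 18889 to 26376 with DMI, from 14939 to 20369.9 with luteolin and from 18676 to 21466 with quercetin. Of 9 markers of macrophages, endothelium, epithelium and muscle, Adgre1 and Myog had 0 counts in all libraries and the highest value in any library was 2.18 CPM, for Cd68. The third DMI library was also the nearest of its group to the untreated mean for all 10 genes. The third luteolin library was so for 8, and the third quercetin library for only 3. The part of the adipocyte markers in the changes below was not tested. In bulk RNA a change in the share of cells that became adipocytes and a change in RNA per cell cannot be told apart. Because the third libraries stood apart, each comparison is also given without them. That setting was chosen after seeing the data. It leaves out the DMI library nearest to the untreated mean, and 52.8% of all genes were then called in DMI against untreated.

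**Figure D1:**
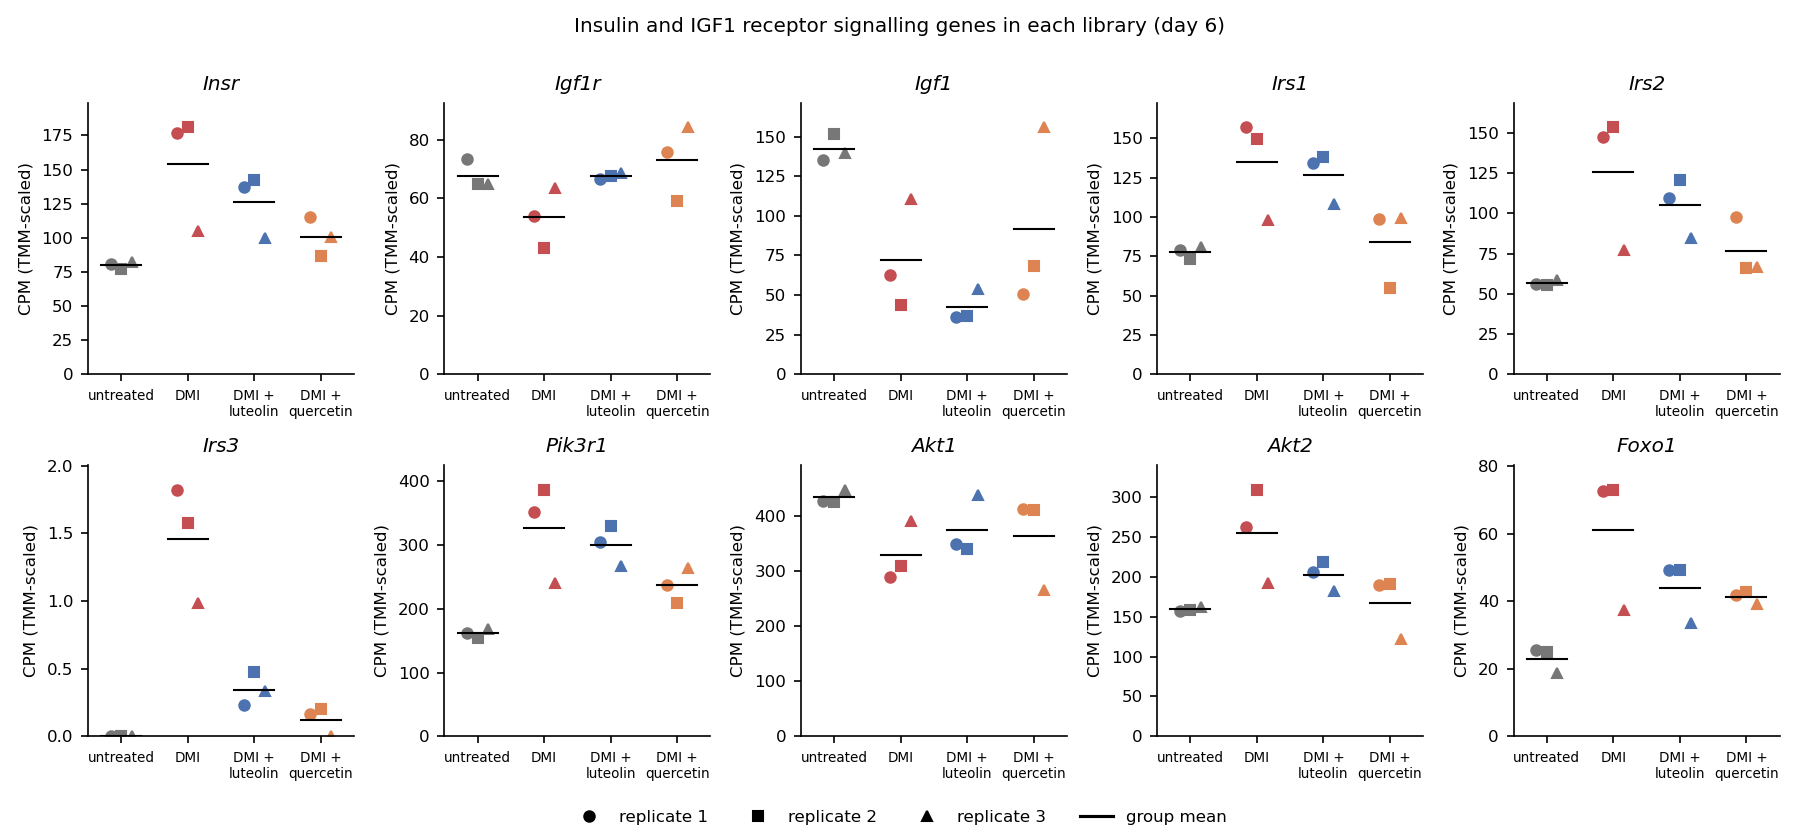
Level of each of the 10 genes in each of the 12 libraries, in TMM-scaled CPM on a linear axis that starts at 0, with symbols for replicates 1 to 3 and a line at the mean of each group of 3. In every panel the DMI library nearest to the untreated mean is replicate 3, and the untreated libraries lie close together.

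Levels of different genes were compared per length, as RPKM (CPM per kilobase of the deposited gene length). In untreated cells Akt1 was the most abundant of the 10 at 106 ± 2.97 RPKM (SD, n = 3), followed by Akt2 at 22.4 ± 0.349, Pik3r1 at 16 ± 0.654 and Igf1 at 14.4 ± 0.875. Irs2 at 8.99 ± 0.261 and Irs1 at 8.50 ± 0.456 overlapped between libraries. Insr measured 5.82 ± 0.188 RPKM, Igf1r 4.04 ± 0.292 and Foxo1 2.65 ± 0.437, and Irs3 had no count. All neighbours in this untreated order other than Irs2 and Irs1 had separate libraries. With DMI the order from the top was Akt1 (80.4 ± 13.1 RPKM), Akt2 (35.7 ± 8.27), Pik3r1 (32.4 ± 7.61), Irs2 (19.9 ± 6.71), Irs1 (14.7 ± 3.48), Insr (11.2 ± 3.11), Igf1 (7.31 ± 3.48), Foxo1 (7.05 ± 2.36), Igf1r (3.19 ± 0.613) and Irs3 (0.625 ± 0.184). In that group the levels from Akt2 down to Foxo1 each overlapped with the next one, and only Akt1, Igf1r and Irs3 stood clear of their neighbours. By group means, Igf1 thus ranked above Irs2, Irs1 and Insr in untreated cells and below them with DMI. In DMI library 3, however, Igf1 stood above Irs1 and Insr.

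Igf1 is the ligand of the set, a secreted growth factor encoded on chromosome 10 (87858265-87937042, plus strand, GRCm38, as are all gene positions here). It measured 135, 152 and 139 CPM in untreated libraries 1, 2 and 3, 62.5, 43.9 and 111 with DMI, 36.3, 36.7 and 53.6 with luteolin, and 50.4, 68.5 and 156 with quercetin. Every DMI and every luteolin library lay below every untreated library, whereas quercetin library 3 lay above all of them. Against untreated, the log2 fold change was -0.97 with DMI (SE 0.39, adjusted p = 0.0814), which missed the threshold. It reached -1.38 (adjusted p = 1.26e-06) without the third induced libraries, where 52.8% of all genes were called. Without DMI library 3 alone it was -1.42 (adjusted p = 0.0124), where 36.4% of all genes were called. Leaving out quercetin library 3, which is in neither group, gave -0.91 (adjusted p = 0.0288). It was also called without a low-count filter (-0.91, adjusted p = 2.48e-05), and in 6 of 22 alternatives in all. With luteolin Igf1 fell by 1.75 on the log2 scale against untreated (SE 0.40, adjusted p = 0.0100), although this call was lost without luteolin library 1 (adjusted p = 0.0514) or 2 (adjusted p = 0.0518). The quercetin value against untreated was -0.64 (adjusted p = 0.330), and without the third libraries -1.19 (adjusted p = 1.08e-05).

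Igf1 averaged 91.6 ± 56.4 CPM (SD, n = 3) with quercetin. Luteolin against DMI gave a log2 fold change of -0.78 (95% interval -1.62 to 0.06, adjusted p = 0.846) and quercetin against DMI 0.34 (-0.50 to 1.17, adjusted p = 0.643). The sign of the quercetin value rested on quercetin library 3, as it was -0.28 without that library. Without the third libraries the luteolin value was -0.52 (adjusted p = 0.0485) and the quercetin value 0.18 (adjusted p = 0.386).

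The receptor genes were the insulin receptor Insr (chromosome 8, 3122061-3279617, minus strand) and the IGF1 receptor Igf1r (chromosome 7, 67952827-68233668, plus strand). Insr measured 80.6, 77.1 and 82.2 CPM in untreated libraries, 177, 181 and 105 with DMI, 137, 142 and 99.95 with luteolin, and 115, 86.9 and 101 with quercetin. All 9 induced libraries lay above all 3 untreated ones, and the third libraries of the DMI and luteolin groups were the lowest of their groups. Insr rose by 0.95 on the log2 scale with DMI (SE 0.20, adjusted p = 0.00564, n = 3 per group), and by 1.20 without the third libraries (adjusted p = 1.4e-07). The call against untreated held in 22 of 22 alternative settings, leaving out each library among them. With luteolin it rose by 0.66 against untreated (adjusted p = 0.0377), a call that ended without any 1 of the untreated libraries or without luteolin library 1 or 2 (adjusted p from 0.0791 to 0.149). The quercetin value was 0.34 (adjusted p = 0.329), and 0.40 without the third libraries (adjusted p = 0.00603).

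Igf1r measured 73.5, 65.0 and 65.0 CPM in untreated libraries, 53.9, 43.1 and 63.7 with DMI, 66.7, 67.7 and 68.8 with luteolin, and 75.9, 59.0 and 84.3 with quercetin. The 3 DMI libraries lay below the untreated and the luteolin libraries, and only DMI library 3 lay close to both. The DMI value against untreated was -0.34 (SE 0.16, adjusted p = 0.131). It was -0.48 (adjusted p = 0.0322) without DMI library 3 and -0.44 (adjusted p = 0.00673) without the third libraries. Of all genes, 36.4% and 52.8% were called in these fits. With luteolin, Igf1r lay within 0.01 log2 units of the untreated level, with a 95% interval from -0.34 to 0.34.

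Taken per length within each library, Insr and Igf1r stood at a ratio of 1.34, 1.45 and 1.54 in untreated libraries, 4.0, 5.13 and 2.01 with DMI, 2.51, 2.57 and 1.77 with luteolin, and 1.85, 1.8 and 1.46 with quercetin. The DMI ratios exceeded all untreated and all quercetin ratios, and the luteolin ratios overlapped with both other induced groups. The geometric mean was 1.44 untreated and 3.46 with DMI, 2.40-fold apart. An exact two-sided permutation test of 3 against 3 libraries gave p = 0.1, the smallest it can give (0.2 after adjustment over 18 ratio tests). The log2 difference in this ratio was 1.26, and 1.65 without the third libraries. Luteolin libraries averaged 2.25 and quercetin libraries 1.69. The latter was 2.04-fold below DMI at the same smallest p of 0.1.

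**Figure D2:**
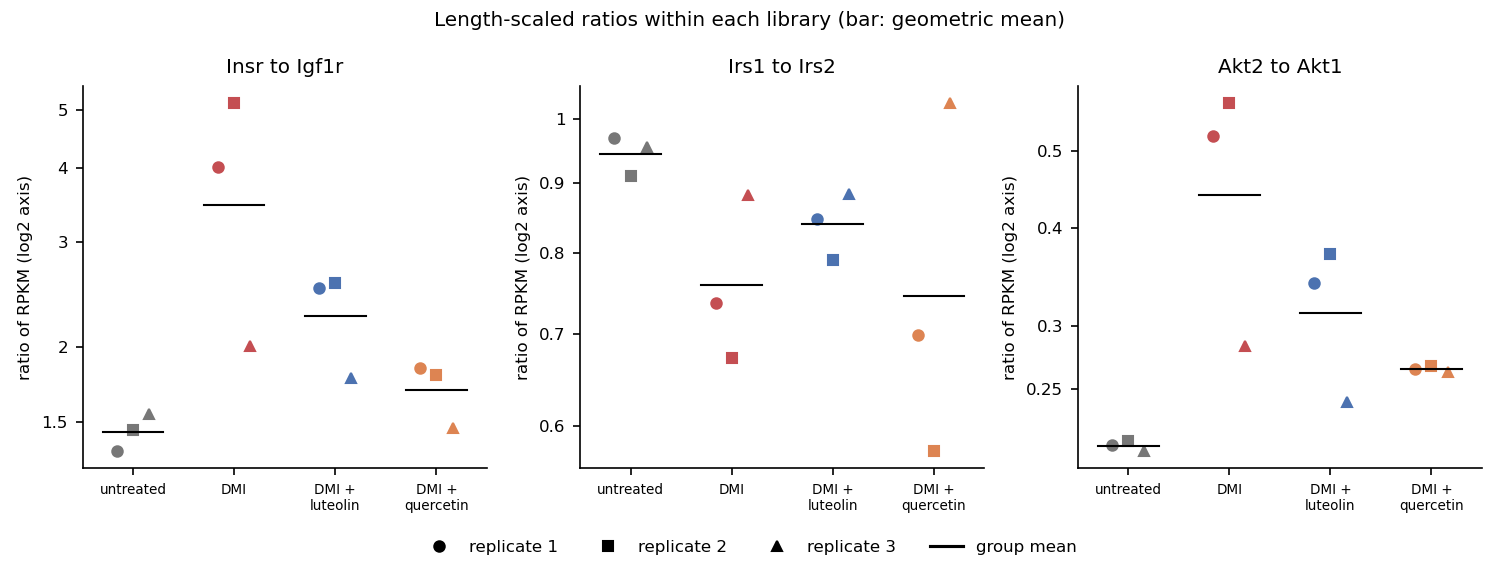
Ratios of RPKM between paired genes within each library (Insr to Igf1r, Irs1 to Irs2, Akt2 to Akt1), on log2 axes, with a line at the geometric mean of each group of 3. The ratio of Akt2 to Akt1 lies near 0.21 in all untreated libraries, near 0.26 in all quercetin libraries, and between 0.24 and 0.57 with DMI or luteolin.

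The receptor substrates are docking proteins: Irs1 (chromosome 1, 82233101-82291416, minus strand) and Irs2 (chromosome 8, 10984681-11008458, minus strand) are the widely expressed ones, and Irs3 (chromosome 5, 137643031-137645714, minus strand) is known in rodents from adipose tissue. The 250 bases before the RefSeq start of each gene are shown because the 3 paralogs moved in the same direction with DMI from very different starting levels. For Irs1 and Irs2 the RefSeq start lies upstream of the gene positions given here, and distances are counted from it. Capitals mark an E-box (CACGTG) and an insulin response element in its reverse form (TGTTTTG, the reverse of CAAAACA), both searched on both strands. The windows come from RefSeq on GRCm38.p6 and are written 5′ to 3′ along the gene's strand: chr1:82291440-82291689 for Irs1, chr8:11008930-11009179 for Irs2 and chr5:137645715-137645964 for Irs3, all minus.
Irs1: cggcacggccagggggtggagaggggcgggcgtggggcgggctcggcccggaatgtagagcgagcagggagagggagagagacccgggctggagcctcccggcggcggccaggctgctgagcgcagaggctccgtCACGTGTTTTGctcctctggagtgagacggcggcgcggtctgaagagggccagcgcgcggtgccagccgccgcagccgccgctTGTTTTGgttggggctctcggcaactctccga
Irs2: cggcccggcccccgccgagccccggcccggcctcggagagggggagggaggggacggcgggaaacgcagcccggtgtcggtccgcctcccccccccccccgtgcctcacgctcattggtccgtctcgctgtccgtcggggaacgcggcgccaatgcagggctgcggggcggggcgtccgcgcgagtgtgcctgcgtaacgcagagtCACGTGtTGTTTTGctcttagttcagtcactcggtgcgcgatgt
Irs3: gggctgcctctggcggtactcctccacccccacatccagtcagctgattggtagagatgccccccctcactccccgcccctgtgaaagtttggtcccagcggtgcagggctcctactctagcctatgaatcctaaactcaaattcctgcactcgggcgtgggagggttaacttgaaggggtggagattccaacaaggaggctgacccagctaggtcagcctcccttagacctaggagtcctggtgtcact

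In the Irs1 window the E-box lay 115 to 110 bases before the start and overlapped an insulin response element at 111 to 105, and a second such element lay at 32 to 26. In the Irs2 window the E-box at 44 to 39 was followed by an insulin response element at 37 to 31. The Irs3 window held neither. Of 32851 promoter windows of this length, 6.02% held the E-box, 5.56% the insulin response element and 0.295% both. The letters GTAAACA, 1 form of a FoxO site found in 3.17% of windows, were in none of these 3 windows. Of the 14 windows found for 9 of the 10 genes only 1, of Akt1, held them. The insulin response element was searched separately and was not counted as a FoxO site here. These are matches of letters, and no binding was measured. GC content was 72.4% for Irs1, 72.8% for Irs2 and 58.4% for Irs3.

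Irs1 measured 79.0, 73.0 and 81.0 CPM in untreated libraries, 157, 149 and 98.3 with DMI, 134, 138 and 108 with luteolin, and 98.5, 54.9 and 99.0 with quercetin. DMI and luteolin libraries were all above the untreated ones, and quercetin library 2 was the lowest of all 12. The rise with DMI was 0.79 on the log2 scale (SE 0.22, adjusted p = 0.0214), and 1.02 without the third libraries (adjusted p = 9.98e-05). The call was lost when DMI library 1 or 2 or any 1 untreated library was left out (adjusted p from 0.0522 to 0.0966). Luteolin with DMI stood 0.71 above untreated (adjusted p = 0.0438), a call lost in 8 of 22 alternatives, among them each untreated library and luteolin or DMI library 1 or 2 left out (highest adjusted p = 0.147). For quercetin the value was 0.12 (95% interval -0.37 to 0.60). Opposite to Irs1, 30.9% of its exon bases are covered by the exons of a gene model, Gm9747, that had 0 counts in all libraries. Reads in the shared stretch were thus not counted for Gm9747. The sources used here do not say whether they were counted for Irs1, and its level per length is too low if they were not.

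Irs2 measured 56.4, 55.5 and 58.7 CPM in untreated libraries, 147, 153 and 77.0 with DMI, 109.6, 121 and 84.7 with luteolin, and 97.5, 66.0 and 66.7 with quercetin. All 9 induced libraries exceeded all untreated ones, by the least in quercetin libraries 2 and 3. Irs2 rose by 1.15 on the log2 scale with DMI (SE 0.24, adjusted p = 0.00521), by 1.44 without the third libraries (adjusted p = 1.92e-07), and in 22 of 22 alternatives. It rose by 0.88 with luteolin against untreated (adjusted p = 0.0232), which was not called without any 1 of the untreated libraries or luteolin library 1 or 2 (adjusted p from 0.0574 to 0.1003). The quercetin value was 0.43 (adjusted p = 0.286), and 0.59 without the third libraries (adjusted p = 0.00193). An opposite-strand gene, 9530052E02Rik, with 22 counts over all libraries, covers 2.56% of the exon bases of Irs2.

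Irs3 had 0 counts in each untreated library, 29, 23 and 16 with DMI, 4, 8 and 5 with luteolin, and 3, 4 and 0 with quercetin. In CPM the DMI libraries stood at 1.82, 1.58 and 0.985, those with luteolin at 0.233, 0.472 and 0.333, and those with quercetin at 0.164, 0.202 and 0. Every DMI library was above every library of the other groups, and every luteolin library above every quercetin library. However, the lowest luteolin library and the highest quercetin library had 4 counts each and differed only by scaling. Irs3 passed the low-count filter only through the DMI libraries, so the separation of DMI from the other groups was built into its selection. Against a floor of 3 counts over the untreated group, Irs3 was at least 24.0-fold higher with DMI (adjusted p = 0.000939) and at least 5.69-fold higher with luteolin (adjusted p = 0.0146, or 0.0556 without luteolin library 2). With quercetin the 7 counts gave at least 2.12-fold, and the adjusted p of 0.108 missed the threshold. Within the induced groups, 68 counts with DMI against 17 with luteolin made a ratio of 4.21 (95% counting interval 2.45 to 7.64), and 68 against 7 with quercetin made 11.3 (5.20 to 29.2). Counting intervals cover counting error only.

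By the test over libraries, Irs3 fell by 3.45 on the log2 scale with quercetin against DMI (SE 0.64, adjusted p = 0.0484). This was the only call of the 10 genes in that comparison, and it lay close to the threshold. Because Irs3 passed the low-count filter only through the DMI libraries, a fall from DMI was built into its selection for testing. The call passed in 8 of 21 alternatives, and adjusted p ranged from 0.000174 to 0.231 over them. Leaving out any 1 library ended it except DMI library 3, luteolin library 3 and quercetin library 1. For luteolin against DMI the value was -2.05 (95% interval -3.30 to -0.81, adjusted p = 0.509), and without the third libraries -2.23 (adjusted p = 0.0272). Luteolin against quercetin gave 1.39 (-0.24 to 3.02, adjusted p = 0.569).

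Per length, the sum of Irs1, Irs2 and Irs3 was made up almost wholly of the first 2. Irs3 held 0% of that sum in untreated libraries, 1.78 ± 0.132% with DMI, 0.486 ± 0.153% with luteolin and 0.263 ± 0.262% with quercetin (SD, n = 3). Irs1 held 48.6% untreated and 42.4% with DMI. The share of Irs1 and its ratio to Irs2 depend on how reads in the stretch shared with Gm9747 were treated. The ratio of Irs1 to Irs2 was 0.969, 0.910 and 0.955 in untreated libraries, 0.737, 0.673 and 0.882 with DMI, 0.848, 0.791 and 0.883 with luteolin, and 0.699, 0.576 and 1.03 with quercetin. The DMI and luteolin ratios lay below all untreated ratios, and the quercetin ratios spanned the whole range. DMI stood 1.24-fold below untreated in this ratio (exact permutation p = 0.1, adjusted 0.2).

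Pik3r1 (chromosome 13, 101680563-101768217, minus strand) encodes the p85α regulatory subunit that couples phosphoinositide 3-kinase to receptor substrates. It measured 162, 155 and 168 CPM in untreated libraries, 352, 387 and 240.4 with DMI, 304, 331 and 267 with luteolin, and 238, 209 and 264 with quercetin. All 9 induced libraries were above all untreated ones, and the luteolin libraries were all above the quercetin ones. Pik3r1 rose by 1.01 on the log2 scale with DMI (SE 0.17, adjusted p = 0.00157) and by 0.90 with luteolin against untreated (SE 0.17, adjusted p = 0.00449), each in 22 of 22 alternatives. These became 1.23 and 1.04 without the third libraries. Quercetin stood 0.55 above untreated (SE 0.17, adjusted p = 0.0605), just short of the threshold, and was past it in 9 of 22 alternatives.

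Akt1 (chromosome 12, 112653821-112674884, minus strand) and Akt2 (chromosome 7, 27591552-27640826, plus strand) encode the serine-threonine kinases that relay the signal, Akt2 being the form most tied to glucose uptake in adipocytes. Akt2 measured 157, 159 and 162 CPM in untreated libraries, 263, 309 and 192 with DMI, 206, 218 and 183 with luteolin, and 189.8, 190.3 and 122 with quercetin. DMI and luteolin libraries were above all untreated ones, and quercetin library 3 was below all of them. The rise with DMI was 0.68 on the log2 scale (SE 0.19, adjusted p = 0.0224), and 0.88 without the third libraries (adjusted p = 3.03e-07). As for Irs1, the call was lost without DMI library 1 or 2 or any 1 untreated library (adjusted p from 0.0509 to 0.119). The luteolin value was 0.34 (adjusted p = 0.236) and the quercetin value 0.07 (adjusted p = 0.863).

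Akt1 measured 427, 425 and 447 CPM in untreated libraries, 289, 309 and 390.0 with DMI, 349, 339 and 437 with luteolin, and 412, 409.7 and 266 with quercetin. The DMI libraries lay below all untreated ones, and the lowest value of all came from quercetin library 3. With DMI the log2 fold change was -0.40 (SE 0.18, adjusted p = 0.128). It was -0.53 (adjusted p = 0.0437) without DMI library 3, where 36.4% of all genes were called. Without the third libraries it was -0.50 (adjusted p = 5.4e-05), where 52.8% were called. Luteolin stood at -0.21 (adjusted p = 0.456) and quercetin at -0.26 (adjusted p = 0.415) against untreated.

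The ratio of Akt2 to Akt1 per length was 0.212, 0.214 and 0.208 in untreated libraries, 0.523, 0.575 and 0.283 with DMI, 0.340, 0.370 and 0.240 with luteolin, and 0.264, 0.267 and 0.263 with quercetin. Each of the 9 induced ratios exceeded each untreated ratio. The quercetin ratios were nearly equal in all 3 libraries, although Akt1 and Akt2 were each lowest in library 3, and they lay below all DMI ratios. Geometric means were 0.212 untreated, 0.440 with DMI, 0.312 with luteolin and 0.265 with quercetin. DMI was 2.08-fold above untreated and quercetin 1.66-fold below DMI, each at the smallest exact permutation p of 0.1 (adjusted 0.2). On the log2 scale these differences were 1.06 and -0.73, and 1.37 and -1.05 without the third libraries.

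Foxo1 (chromosome 3, 52268336-52353221, plus strand) encodes the FoxO transcription factor that Akt inactivates. It measured 25.4, 24.9 and 18.6 CPM in untreated libraries, 72.7, 73.1 and 37.4 with DMI, 49.4, 49.3 and 33.5 with luteolin, and 41.9, 42.7 and 39.1 with quercetin. All 9 induced libraries exceeded all untreated ones, and the quercetin libraries were the closest together of the induced groups. Foxo1 rose by 1.41 on the log2 scale with DMI (SE 0.24, adjusted p = 0.00172), and by 1.71 without the third libraries (adjusted p = 8.4e-09), with the call kept in 22 of 22 alternatives. With luteolin it rose by 0.94 against untreated (adjusted p = 0.0176), a call lost without luteolin library 1 (adjusted p = 0.0749) or 2 (adjusted p = 0.0765) or untreated library 3 (adjusted p = 0.0631). It was the only gene of the set called with quercetin against untreated (rise of 0.84 on the log2 scale, SE 0.24, adjusted p = 0.0454). That call was lost in 9 of 22 alternatives, the highest adjusted p being 0.138 without untreated library 3. The others were limma-voom and leaving out untreated library 1 or 2, DMI library 1, luteolin library 1 or 2, or quercetin library 1 or 2. Without the third libraries the quercetin value was 0.95 (adjusted p = 1.19e-05). An opposite-strand gene model, Gm20402, with 0 counts in all libraries, covers 7.78% of the exon bases of Foxo1.

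**Figure D3:**
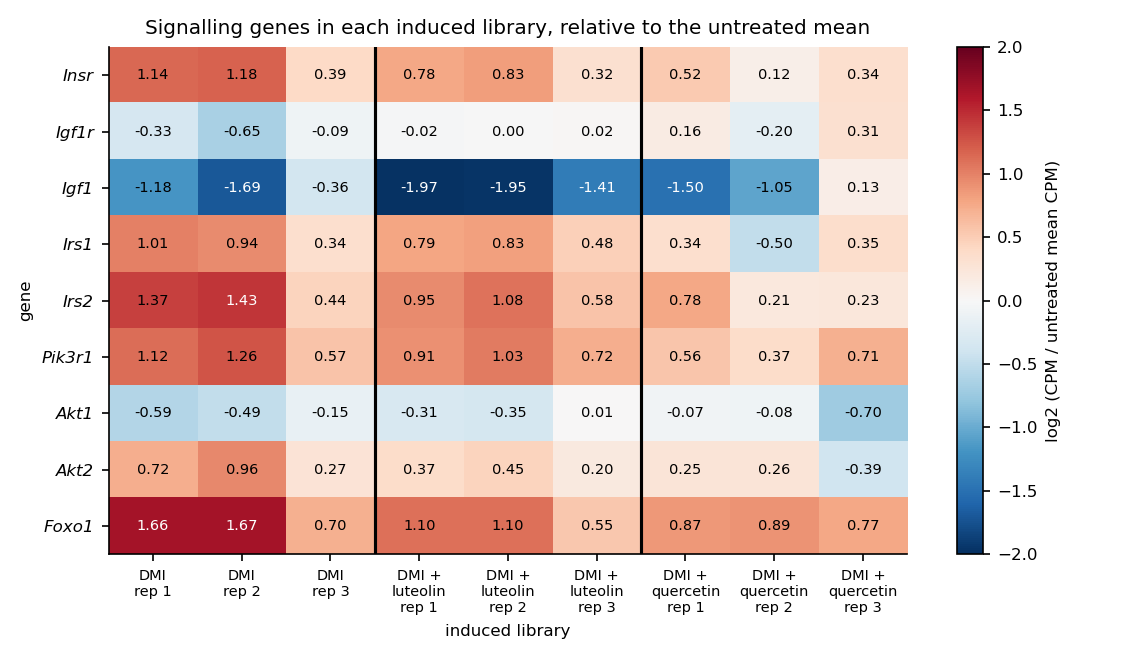
Log2 of the CPM of each gene in each induced library over the mean of the 3 untreated libraries, from blue (lower) to red (higher), with Irs3 left out because it had no untreated count. DMI library 3 shows smaller differences than DMI libraries 1 and 2 for all 9 genes, for example 0.39 against 1.14 and 1.18 for Insr.

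Counted over the set, the libraries of the DMI and untreated groups did not overlap for any of the 10 genes, 7 higher and 3 lower, where 52.1% of all genes tested had groups without overlap. Irs3, which passed the low-count filter only through the DMI libraries, is among the 7 higher. Against the 27.1% of genes called, 7 of 10 is a larger share, in which Irs3 counts by its selection. The median log2 fold change was 0.87 beside -0.04 over all genes tested. As the 10 genes were chosen with earlier results of these data known, these figures only describe them. In DMI library 3 all 10 genes were nearer to the untreated mean than in DMI libraries 1 and 2, and in luteolin library 3 this held for 8 of 10. Quercetin library 3 was nearest for 3 genes, library 1 for 4 and library 2 for 3. Leaving out 1 library at a time moved the count with DMI between 5 and 10 of the 10, with 10 when DMI library 3 was left out (36.4% of all genes called) and 5 when DMI library 1 or 2 or any 1 untreated library was (12.3% to 16.1% of all genes). All 10 were called without the third libraries, 7 higher and 3 lower, but 52.8% of all genes were then called too.

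Luteolin with DMI against untreated gave 7 calls of 10, with Insr, Irs1, Irs2, Irs3, Pik3r1 and Foxo1 higher and Igf1 lower. Of all genes tested 19.3% were called and 10.5% were called higher. The groups had no overlap for 8 of the 10 genes, compared with 53.8% of all genes. The median log2 fold change of the 10 was 0.68, beside -0.03 over all genes. Depending on which single library was left out, the count ran from 1 to 8. It was 1 without luteolin library 2 (7.76% of all genes called), 2 without luteolin library 1 (8.46%) and 3 or 4 without 1 of the untreated libraries (9.37% to 10.1%), and without the third libraries it was 9 (44.9% of all genes).

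Quercetin with DMI against untreated gave 1 call of 10, Foxo1, where 9.45% of all genes were called and 4.79% were called higher. Groups without overlap numbered 5 of 10 (31.2% of all genes), for Insr, Irs2, Pik3r1, Foxo1 and, in the lower direction, Akt1. The median of the 10 was 0.23, beside 0.02 over all genes. The share called is near the background here. Leaving out single libraries gave counts from 0 to 4, the 4 without quercetin library 3 (21.6% of all genes called), and leaving out the third libraries gave 7 (40.4% of all genes called).

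**Figure D4:**
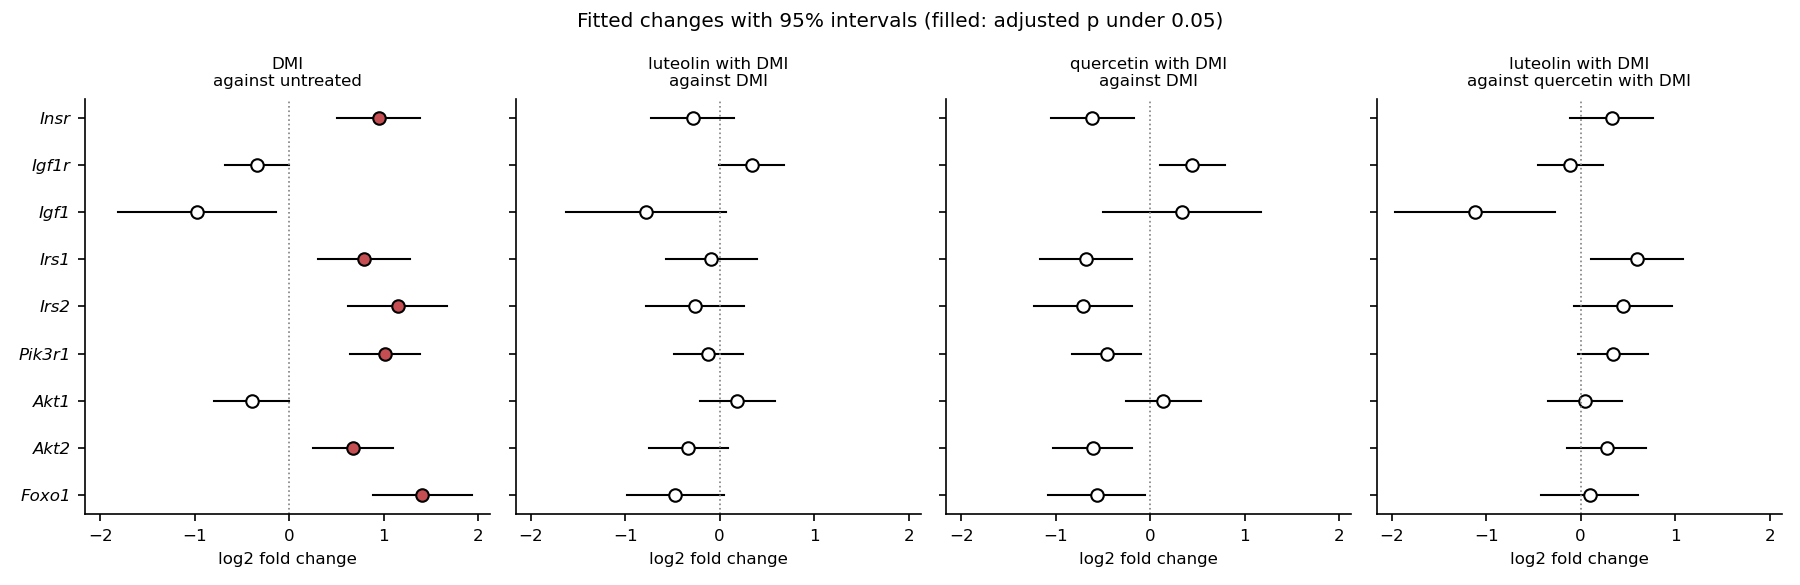
Fitted log2 fold changes of 9 genes in 4 comparisons, with 95% intervals, filled where the adjusted p was under 0.05; Irs3 is left out because its fitted value against 0 counts depends on the prior count. With DMI the 6 filled points lie between 0.68 and 1.41, and no point is filled in the other 3 panels.

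The compounds were compared with DMI alone and with each other. As doses are not given, the values of both compounds are set beside each other without a claim of matched doses. The 2 compound comparisons against DMI share the DMI libraries, as do the untreated comparisons with the untreated libraries. Luteolin against DMI gave 0 calls of 10 by edgeR, by DESeq2 and by limma-voom, and Irs3 alone had an unadjusted p under 0.05. Groups had no overlap for Igf1r (higher) and Irs3 (lower), 2 of 10, where 11.5% of all genes had none. Irs3 passed the low-count filter only through the DMI libraries, so its separation was built into its selection, which leaves Igf1r. The value for Igf1r was 0.34 (95% interval 0.00 to 0.68, adjusted p = 0.816). The intervals of the other genes ran from -0.72 to 0.15 for Insr, from -0.57 to 0.40 for Irs1, from -0.78 to 0.26 for Irs2, from -0.49 to 0.25 for Pik3r1, from -0.21 to 0.58 for Akt1, from -0.75 to 0.09 for Akt2 and from -0.98 to 0.04 for Foxo1. A value as low as -0.98 for Foxo1 thus lies within its interval.

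In luteolin and DMI the libraries of the same number deviated from their group means together, most of all the third, while the others were not clearly matched by number. The fit with the replicate number as a block was made as well. With all 12 libraries it gave 0 calls of 10, and with only the 6 libraries of this comparison it gave 3, Igf1 (-0.71, adjusted p = 0.0134), Irs3 (-2.05, adjusted p = 0.0244) and Foxo1 (-0.43, adjusted p = 0.0271), where 6.58% of all genes were called. Leaving out the third libraries gave 5 of 10, Igf1r higher and Igf1, Irs3, Akt2 and Foxo1 lower, where 10.4% of all genes were called. Akt2 then stood at -0.40 (adjusted p = 0.00881) and Foxo1 at -0.54 (adjusted p = 0.00904).

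Quercetin against DMI gave lower average values for Insr, Irs1, Irs2, Irs3, Pik3r1, Akt2 and Foxo1. Apart from Irs3 none passed the threshold in the fit over all libraries. The log2 fold changes were -0.61 for Insr (95% interval -1.05 to -0.17, adjusted p = 0.125), -0.68 for Irs1 (-1.17 to -0.19, adjusted p = 0.125), -0.71 for Irs2 (-1.23 to -0.19, adjusted p = 0.129), -0.46 for Pik3r1 (-0.83 to -0.09, adjusted p = 0.152), -0.61 for Akt2 (-1.03 to -0.19, adjusted p = 0.115) and -0.57 for Foxo1 (-1.08 to -0.05, adjusted p = 0.196). Igf1r stood at 0.45 (0.10 to 0.79, adjusted p = 0.140) and Akt1 at 0.14 (-0.26 to 0.53). An unadjusted p under 0.05 was seen for 8 of the 10, and limma-voom called 0. DESeq2 called 1, Akt2 (adjusted p = 0.0407), where it called 6.75% of all genes, and gave Irs3 no adjusted p. The median of the 10 was -0.59, beside 0.02 over all genes. Groups had no overlap for 2 of 10, Irs3 and Akt2, where 14.0% of all genes had none. Irs3 passed the low-count filter only through the DMI libraries, so its separation was built into its selection, which leaves Akt2.

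These values depended on DMI library 3, the one nearest to untreated cells. Without it 8 of the 10 were called in quercetin against DMI, where 17.4% of all genes were called, with Insr at -0.82 (adjusted p = 0.00588), Irs1 at -0.86 (adjusted p = 0.0165), Irs2 at -0.97 (adjusted p = 0.00523), Pik3r1 at -0.64 (adjusted p = 0.00913), Akt2 at -0.77 (adjusted p = 0.0128), Foxo1 at -0.82 (adjusted p = 0.00956), Igf1r at 0.59 (adjusted p = 0.0246) and Irs3 also lower. Without the third libraries of all induced groups 9 were called, 7 lower with Igf1r and Akt1 higher, where 33.4% of all genes were called. The summed adipocyte markers were 516 to 2666 CPM with quercetin and 2348 to 10471 with DMI, and their part in these values was not tested.

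Luteolin against quercetin gave 0 calls of 10 by edgeR, DESeq2 and limma-voom, with 0% of all genes called by edgeR. An unadjusted p under 0.05 was seen for Igf1 and Irs1. Igf1 stood 1.12 lower with luteolin on average (log2 fold change -1.12, 95% interval -1.96 to -0.27, adjusted p = 0.541), with quercetin library 3 by far the highest. Irs1 stood at 0.59 (0.11 to 1.08, adjusted p = 0.541), Irs2 at 0.45 (-0.07 to 0.97), Pik3r1 at 0.34 (-0.02 to 0.71) and Insr at 0.33 (-0.11 to 0.76). The libraries of the 2 groups did not overlap for Irs1, Irs3 and Pik3r1, all higher with luteolin, 3 of 10 compared with 10.3% of all genes. For Irs3 the nearest libraries of the 2 groups held equal counts, so its separation came from scaling alone. For Akt1 (-0.35 to 0.44), Akt2 (-0.14 to 0.69), Igf1r (-0.45 to 0.23) and Foxo1 (-0.42 to 0.61) the intervals cover 0 and reach less than 0.70 log2 units on either side. Without the third libraries 6 were called (13.8% of all genes): Insr (0.47, adjusted p = 0.0135), Irs1 (0.82, adjusted p = 0.00879), Irs2 (0.49, adjusted p = 0.0291) and Pik3r1 (0.51, adjusted p = 0.00311) higher with luteolin, and Igf1 (-0.71, adjusted p = 0.00850) and Akt1 (-0.26, adjusted p = 0.0455) lower.

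Around these 10 genes, a list of 62 further genes of the pathway was read from the same fit, of which 55 passed the low-count filter. With DMI 9 rose and 6 fell, 15 of 55 beside the 27.1% of all genes called, and their median log2 fold change was -0.05, beside -0.04 over all genes. The count was 9 without DMI library 1 (12.7% of all genes called), 8 without DMI library 2 (12.3%) and 30 without the third libraries (52.8%). As a share, the list was near the background, with a few large changes in it. Among adaptors and receptor regulators, Sh2b2, an adaptor of activated insulin receptors also called APS, rose by 4.49 on the log2 scale (7.87 to 177 CPM, adjusted p = 0.000266) and Cav1, the caveolin that binds the receptor in caveolae, by 3.84 (99.7 to 1427 CPM). Pde3b, the phosphodiesterase through which insulin restrains lipolysis, rose by 4.82 (1.8 to 51.1 CPM, adjusted p = 0.000247). Among genes that fell, Trib3, an inhibitor of Akt, dropped by 1.5 on the log2 scale (130 to 45.9 CPM), Socs1, a suppressor of receptor signalling, by 0.81 and Igf2r, the receptor that clears IGF2, by 0.77. Of 8 tested subunits of phosphoinositide 3-kinases other than Pik3r1, 0 rose and 1 fell, and of 12 genes of the mTOR branch 3 rose and 0 fell.

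Pde3b was the 1 pathway gene called in quercetin against DMI (1 of 55 beside 1.01% of all genes), at 9.74 CPM against 51.1 (log2 fold change -2.39, SE 0.49, adjusted p = 0.0484). Its libraries measured 67.8, 70.1 and 15.5 CPM with DMI, 19.5, 27.4 and 10.5 with luteolin, 10.7, 7.99 and 10.5 with quercetin, and 1.62, 2.62 and 1.15 untreated. The quercetin libraries lay below all DMI libraries, and luteolin library 3 lay below DMI library 3. The count for this comparison ran from 0 to 9 when single libraries were left out, with 9 without DMI library 3 (17.4% of all genes called), and was 25 without the third libraries, where 33.4% of all genes were called. Luteolin against DMI and luteolin against quercetin gave 0 of 55 by edgeR, DESeq2 and limma-voom, with an unadjusted p under 0.05 for 2 and 3 genes. Against untreated, luteolin gave 8 higher and 5 lower of 55 (19.3% of all genes called) and quercetin 6 higher and 3 lower (9.45% of all genes called), with Sh2b2, Cav1 and Pde3b higher and Trib3 and Pik3r2 lower in both.

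**Figure D5:**
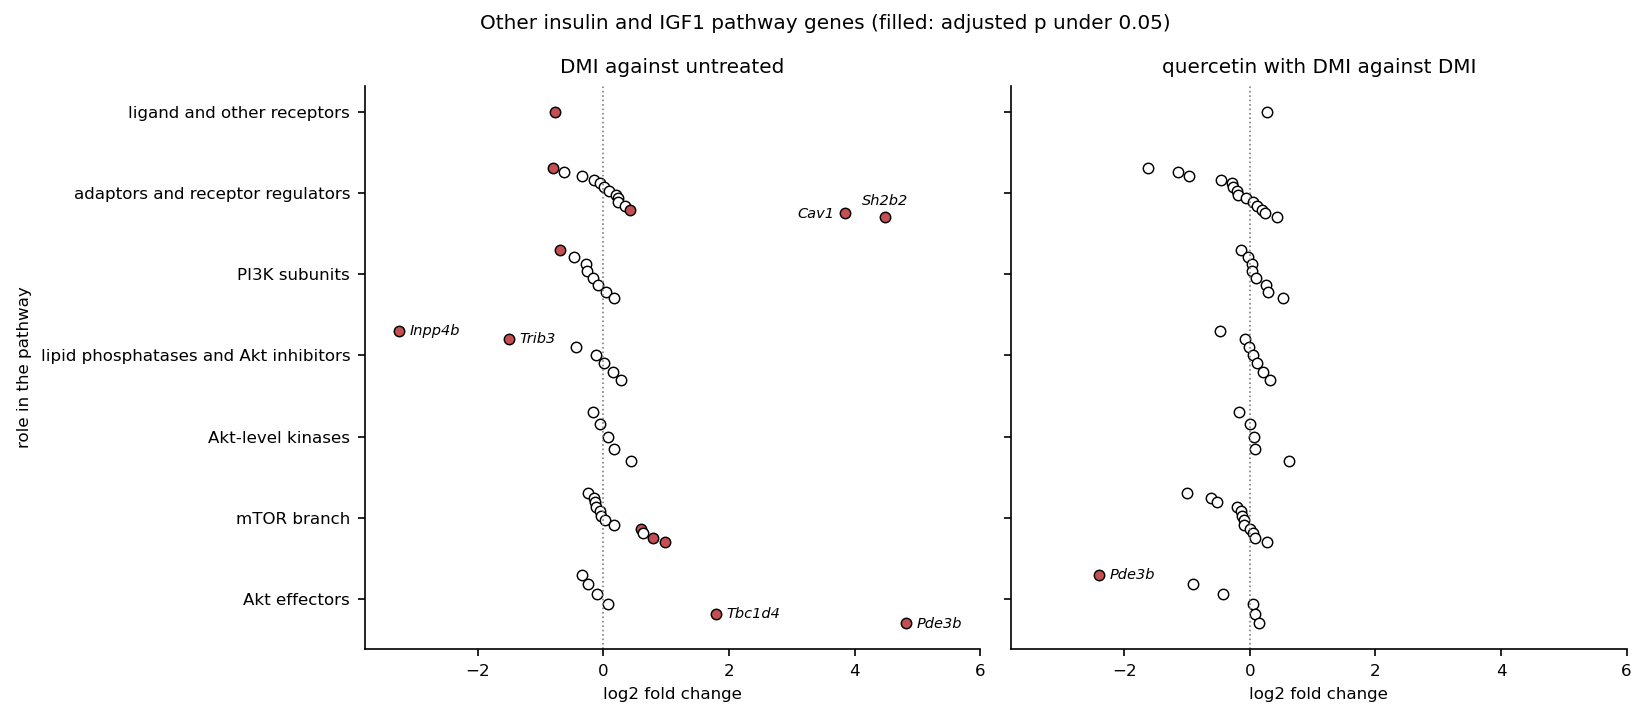
Log2 fold changes of the tested genes of the pathway list by role, without 2 that are not reported here, for DMI against untreated and quercetin with DMI against DMI, filled where the adjusted p was under 0.05. On the left, Sh2b2, Cav1 and Pde3b lie beyond 3.8 while most genes lie near 0, and Inpp4b, which averaged under 5 CPM, is lowest at -3.25. On the right, Pde3b at -2.39 is the 1 filled point.

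For 4 of the genes, the 3 protein-coding genes most alike in pattern were looked up among 10137 genes, by Pearson's r of log2 CPM over the 12 libraries, which share the 4 groups, so the values are descriptions. Insr was most like Extl3 (r = 0.991), Abcc5 (0.986) and Sik2 (0.985). Extl3 measured 117 CPM untreated, 223 with DMI, 192 with luteolin and 139.7 with quercetin, an order of group means that Insr shared. Igf1 was most like Skil (0.980), Zfp9 (0.972) and Nrep (0.967), all lowest with luteolin. Irs1 was most like Pdpr (0.978), Vps13c (0.969) and Lyst (0.962), and Foxo1 most like Mturn (0.979), Phtf2 (0.979) and Hadhb (0.976), a subunit of the mitochondrial trifunctional protein of fatty acid oxidation.

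The authors' deposited table holds their own comparisons of the same genes. In the authors' deposited table Igf1 passes 0.05 for DMI against untreated (log2 fold change -0.92, adjusted p = 0.0139), which it did not in the fit made here. For quercetin against untreated the authors' deposited table gives Pik3r1 0.57 with an adjusted p of 0.00541, likewise past 0.05 there and not here. Akt2 for luteolin against untreated is the remaining such case, at 0.38 with an adjusted p of 0.000327 in the authors' deposited table and 0.236 here. In the authors' deposited table Irs3 stands at -3.53 for quercetin against DMI (adjusted p = 0.00367) and at -2.07 for luteolin against DMI (adjusted p = 0.0865). The sources used here do not name the tool behind those values.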

How the data were processed

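Counts per gene for 12 libraries of 3T3-L1 cells (4 groups of 3, grouped by the deposited labels) were used as deposited by the authors, whose processing notes name featureCounts 1.5.0-p3, CASAVA 1.8.2 and the build mm9. The aligner and the strand setting are not given in the sources used here, and the library kit does not mark strand, so reads of a gene and of an antisense partner cannot be told apart. Positions in the table equal GENCODE M21 on GRCm38 for 98.3% of genes and were used as such. The deposited FPKM values and the authors' normalized group means were not used for tests. The authors' deposited log2 fold changes and p-values were read only for comparison. Gene lengths are the deposited ones. All sample columns were used, and 27 symbols turned into dates were restored.

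Genes were filtered with filterByExpr (minimum count 10, 14855 kept), scaled by TMM and fitted in 1 model over all 12 libraries with edgeR 4.0.16, testing 6 comparisons by quasi-likelihood with Benjamini-Hochberg adjustment over all genes and a threshold of 0.05. The step was tested on simulated data. RPKM was TMM-scaled CPM per kilobase. Ratios between genes were tested by exact permutation (scipy 1.17.1). Alternatives were other scalings and filters, DESeq2 1.42.0, limma-voom 3.58.1, a replicate block, fits of 6 libraries and leaving out each library. Totals of 14522182 to 19436796 counts leave only Irs3 limited by counting. No 2 libraries agreed within sampling noise, the lowest chi-square per gene being 2.68.

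The same replicate numbers stand in all groups. Deviations of same-numbered libraries correlated at 0.261, 0.337 and 0.590 for luteolin and DMI, which met the rule for pairing (over 0.1 in each pair), though luteolin library 2 correlated better with DMI library 1 (0.367). As the third library stood apart in both groups, the rule cannot tell pairing by number from that split. Other pairs of groups did not meet the rule, with 0.0682, 0.279 and 0.335 for quercetin and DMI.

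The 10 genes, the pathway list and the markers were chosen with earlier results of these data known. Named were all 10 genes in every comparison, up to 4 called pathway genes per direction by size of change with a mean of at least 5 CPM, and the 3 genes of highest correlation for Insr, Igf1, Irs1 and Foxo1. Promoter windows of 250 bases came from RefSeq, which matched 9 of the 10 genes. Values of 2 pathway genes are not reported here, though they stand in the counts over the list.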

Additional observations from a re-analysis of the deposited data

How the results depend on the processing

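Among alternatives other than leaving out libraries, the calls among the 10 genes for DMI and luteolin against untreated stayed within 1.5 times the reported 7. For quercetin against DMI, 1 member and 1 pathway gene were called (1.01% of all genes called). These became 0 and 0 with library totals (0.397%), a filter of 1 CPM in 3 libraries (0.402%), limma-voom (0.00673%) or only 6 libraries (0%). Without a low-count filter they became 6 and 9 (5.98%), and DESeq2 gave 6 pathway genes (6.75%). For quercetin against untreated the 1 member (9.45% of all genes called) became 2 with library totals (9.75%), the 1 CPM filter (10.5%), DESeq2 (14.6%) or 6 libraries (9.42%). The count became 3 without a filter (8.12%) and 0 with limma-voom (8.26%). Without a filter, luteolin gave 1 member and 3 pathway genes against DMI (1.25% of all genes called), and 2 and 4 against quercetin (1.55%). With 6 libraries, luteolin against untreated gave 25 pathway genes, where 42% of all genes were called. Without the third induced libraries, pathway calls were 30 (DMI against untreated), 6 (luteolin against DMI), 25 (quercetin against DMI), 15 (luteolin against quercetin), 27 and 27 (luteolin and quercetin against untreated). In the same order, 52.8%, 10.4%, 33.4%, 13.8%, 44.9% and 40.4% of all genes were then called. Member calls were then 5, 9 and 6 in the comparisons among induced groups and 7 for quercetin against untreated. For these count changes the cause was not tested.

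The replicate block over all 12 libraries gave 2 members and 7 pathway genes for quercetin against DMI (9.39% of all genes called). It gave 2 members for quercetin against untreated (14.2% of all genes called). With the block in 6 libraries, luteolin against DMI gave 3 members and 4 pathway genes (6.58% of all genes called). Pathway calls were 3 for quercetin against DMI (5%), 1 for luteolin against quercetin (0.255%) and 24 for luteolin against untreated (40.8%). The block also gave a call for Igf1 in DMI against untreated (-1.10, adjusted p = 0.0076 in 12 libraries, and -1.01, adjusted p = 0.0462 in 6). Pairing held by its rule only for luteolin and DMI.

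Leaving out single libraries moved member counts from 5 to 10 (DMI against untreated), 0 to 8 (quercetin against DMI), 1 to 8 (luteolin against untreated) and 0 to 4 (quercetin against untreated), and kept 0 for both other comparisons. Pathway counts moved from 8 to 19, 0 to 9, 9 to 16 and 4 to 14 in the same order, from 0 to 2 for luteolin against DMI, and stayed at 0 for luteolin against quercetin. The share of all genes called moved from 12.3% to 36.6%, 0% to 17.4%, 7.76% to 29.5% and 3.01% to 21.6%, in the same order. It moved from 0% to 1.7% for luteolin against DMI and from 0% to 0.0657% for luteolin against quercetin. Signs turned only for values near 0 or resting on 1 library. Igf1r in luteolin against untreated, -0.00147, became 0.0363 with RLE size factors, 0.0878 with totals, 0.0687 without a filter, 0.0633 with 1 CPM, 0.0364 with DESeq2, 0.000870 with limma-voom, 0.000306 and 0.0349 with the block, 0.0328 with 6 libraries and 0.0530 without the third libraries. Akt1 in luteolin against quercetin became -0.26 without the third libraries. Over the fits that left out 1 library, values ran from -0.0334 to 0.0650 for that Igf1r value, from -0.134 to 0.148 for Akt1 and from -0.241 to 0.00410 for Igf1r in luteolin against quercetin, from -0.27 to 0.0359 for Irs1 and from -0.297 to 0.0221 for Pik3r1 in luteolin against DMI, from -0.28 to 0.783 for Igf1 in quercetin against DMI, and from -0.0118 to 0.348 for Irs1 and from -0.0328 to 0.321 for Akt2 in quercetin against untreated. Of the other fold changes of the 10 genes over all alternatives, 1159 kept direction and side of the threshold, 70 came past it and 56 were lost. Counting depth limits Irs3 alone.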
